A study of Saccharomyces cerevisiae with 27 samples.

Results

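Wild-type cells of budding yeast (Saccharomyces cerevisiae) were profiled by poly(A) RNA sequencing without stress and after 15 min in 0.4 M NaCl, a hyperosmotic stress referred to here as osmostress. The 6 libraries described were chosen by strain and condition from the 27 libraries of the series, 3 biological replicates labelled H4 WT without stress and 3 with NaCl. Cells of both groups were in log phase on rich YPD medium at 30°C. They derive from BY4741, are MATa, and carry the deletions met15Δ0, ura3Δ0, trp1Δ63, lys2Δ0, leu2Δ0 and his3Δ200. In both groups can1 is replaced by HIS3 behind the MFA1 promoter (can1::MFA1pr-HIS3), the first histone H3 and H4 gene pair is deleted (hht1-hhf1::NatMX4), and the second is replaced by a synthetic wild-type pair marked with URA3 (hht2-hhf2::[HHTS-HHFS(WT)]-URA3), so that all H3 and H4 comes from the synthetic genes. For reference, 3 heat-stressed libraries of the same strain (10 min at 39°C) and 3 non-stressed and 3 osmostressed libraries of an H4-S47D strain, in which serine 47 of the synthetic histone H4 is aspartic acid, were also used. The labels do not say whether a group holds more than 1 clone of its strain. The comparison addresses which of all counted genes change their transcript level within minutes of salt addition, and in which pathways.

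Cells that meet high external osmolarity lose water and turgor. Yeast cells sense this through the membrane proteins Sln1 and Sho1, whose branches converge on the MAP kinase Hog1 (the HOG pathway). Active Hog1 promotes the synthesis and retention of glycerol, the main compatible solute, and enters the nucleus, where it acts with transcription factors such as Hot1, Sko1, Msn2 and Msn4. In parallel, cells of this species answer many stresses with a shared program in which genes for carbohydrate reserves, redox defence and protein folding are induced and genes for ribosomes and growth are repressed.

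Counts summed to between 14662715 and 18237189 per library without stress and between 13573588 and 17882994 upon osmostress, over 6746 genes. Levels are given as CPM, which relates a count to the library size after TMM scaling in edgeR. The TMM factors were 0.819 to 0.973 without stress and 1.03 to 1.14 upon osmostress, so that they separated the groups. Replicates differed by more than counting error, since chi-square divided by its degrees of freedom was 6.55 to 38.5 within a group. Between replicates, log2 CPM correlated across genes with r (Pearson) of 0.991 to 0.994, where genes do not count as replicates. The deleted genes LYS2, LEU2 and MET17 had at most 2 counts in any of the 6 libraries. The MATa genes STE2 and BAR1, a pheromone receptor and a pheromone protease, had 801 and 419 CPM without stress, whereas MF(ALPHA)1, a pheromone of the other mating type, had 0.393 CPM. SAG1, an agglutinin of the other mating type, had 48.7 CPM, so that not every gene of that list was near 0.

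Of the 6209 genes that passed a filter on low counts, osmostress induced 795 and repressed 778 by more than 2-fold (edgeR's glmTreat test against a log2 fold change of 1, Benjamini-Hochberg adjusted p under 0.05 over all genes tested). These are 12.8% and 12.5% of the genes tested, the background for the counts below. When each gene was instead tested against 0 (edgeR's quasi-likelihood test), 2505 genes (40.3%) were higher and 2248 (36.2%) were lower, and 1456 were neither. Induced and repressed are used below only for the first test, and higher and lower for the second. The libraries of both groups did not overlap for 4603 genes (74.1%). Of the genes named below, CMP2, GPX2, GSC2, HXT4, IFH1, MET2, PTP2, RGC1, SCJ1, SSN8, TKL1 and TSA1 lost the 2-fold call with DESeq2 on the 6 libraries or with 1 library left out. All values are relative to the sum of the other transcripts in a library, and the amount of mRNA per cell was not measured. With scaling by the library totals, the median log2 fold change of all genes moved from 0.08 to 0.35, and 1079 genes were then induced and 563 repressed. The repressed genes CLB1, CLB2, CPR7, CYC1, GND1, HXT2, NUP2 and SHO1 then also lost the call.

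The response was not symmetric in size. The median log2 fold change was 2.03 over the induced and −1.83 over the repressed genes. A log2 fold change of 3 or more was reached by 206 induced genes, and one of −3 or less by 131 repressed genes. At unlike limits further out, 63 genes had 5 or more, and 42 of the repressed genes had −4 or less. In between, 2542 genes (40.9%) had a log2 fold change within 0.5 of 0. Induced genes took 2.80% to 3.04% of the counts in the 3 non-stressed libraries and 28.8% to 29.1% in the 3 osmostressed libraries. Repressed genes took 38.1% ± 0.0795 of the counts without stress and 14.5% ± 0.291 upon osmostress (SD, n = 3). The genes were chosen by their difference in these libraries, so these shares are a description.

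**Figure D1:**
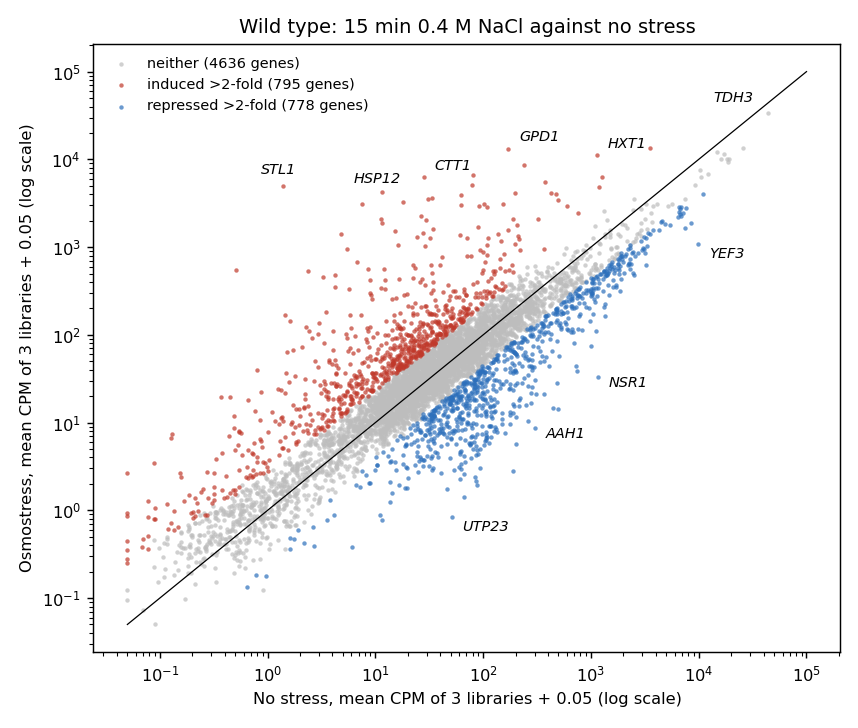
Mean CPM of each gene tested in 3 non-stressed (x axis) and 3 osmostressed (y axis) wild-type libraries, both on log axes after adding 0.05. Red points are the 795 induced and blue points the 778 repressed genes, and the line marks equal levels; STL1, HSP12 and CTT1 lie far above it and UTP23, AAH1 and NSR1 far below.

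Where a gene stood on the expression scale before stress went along with its direction. In the fifth of genes with the lowest level per kb of gene without stress, 297 of 1168 were induced (25.4%) and 18 were repressed. In the fifth with the highest level, 45 of 1167 were induced (3.86%) and 377 were repressed (32.3%). The level without stress enters the fold change itself, so these shares are a description. Of 235 genes within 20 kb of a chromosome end, 33 were induced (14.0%) and 4 were repressed (1.7%). Whether these shares go with their level without stress was not tested. Of 452 genes annotated as hypothetical or uncharacterized, 90 were induced and 29 were repressed (19.9% and 6.42%). Among neighbouring genes on a chromosome, both members were induced in 43 of the 294 divergent pairs with at least 1 induced gene (14.6%), in 100 of 648 tandem pairs (15.4%) and in 18 of 340 convergent pairs (5.29%). Both were repressed in 42 of the 336 divergent pairs with at least 1 repressed gene (12.5%), in 68 of 652 tandem pairs (10.4%) and in 39 of 366 convergent pairs (10.7%). The share that pairs of unrelated genes would give was not computed, so none of these shares is read as an effect of position. Tandem pairs include near-identical copies, such as ENA1, ENA2 and ENA5, which were all induced.

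Promoter sequences were read in a window from 250 bases before to 50 after the annotated start of each gene, which in this annotation is mostly the start codon. The stress response element (STRE, AGGGG), bound by Msn2 and Msn4, was present on either strand in 360 of 741 induced genes with a window (48.6%), in 84 of 770 repressed genes (10.9%) and in 21.7% of all 5836 windows of genes tested. The share of induced genes was higher with more copies, from 8.34% of 4568 genes with none through 25.1% of 1094 genes with 1 and 44.9% of 147 genes with 2 to 70.4% of 27 genes with 3 or more. In contrast, the PAC motif (GATGAG) and the RRPE motif (AAAATTTT), known from genes of ribosome assembly, were held by 46.6% and 33.6% of the repressed genes, against 12.3% and 3.51% of the induced genes and 20.3% and 9.1% of all windows. Among the 130 genes repressed with a log2 fold change of −3 or less that had a window, 112 held a PAC motif (86.2%) and 92 held an RRPE motif (70.8%). Of the 262 genes that held both, 184 were repressed (70.2%) and 4 were induced. Other motifs were held by similar shares of induced, repressed and all genes. For instance, the heat shock element pair (GAANNTTC) was found in 13.8%, 13.0% and 11.9%, and the Gcn4 element (TGACTC) in 10.5%, 8.31% and 8.12%. Each motif was searched on both strands and may share bases with another, as the Hot1 element and the STRE do in STL1 below. A match is a string of letters, and no binding was measured.

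**Figure D2:**
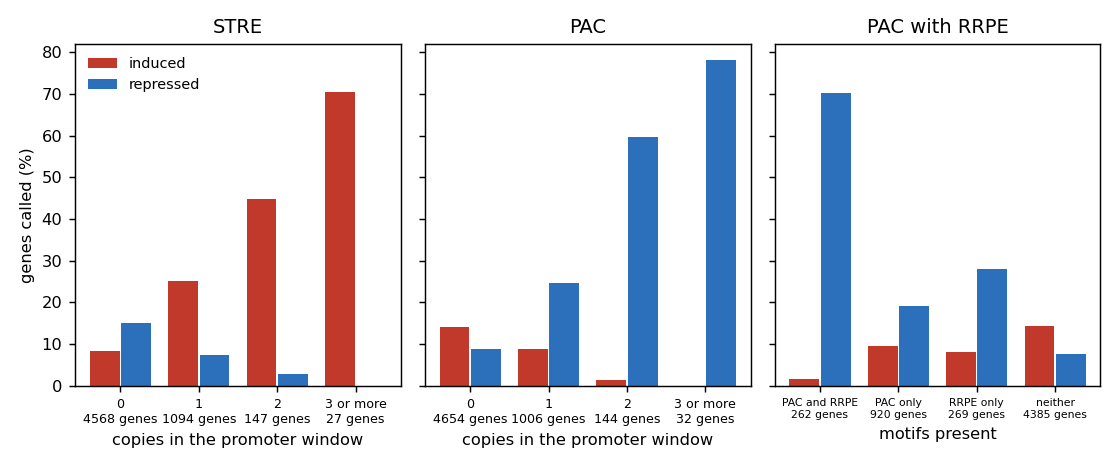
Percent of genes induced (red) and repressed (blue) by more than 2-fold, by the number of STRE copies, of PAC copies, and by the presence of PAC and RRPE in the promoter window; the number of genes tested stands under each pair of bars. The share induced is 8.34% without an STRE and 70.4% with 3 or more, and the share repressed is 70.2% where PAC and RRPE are both present.

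To show these motifs in genes that the results below turn on, 200 bases from 250 to 51 before the start codon are given for 5 induced and 3 repressed genes, read 5′ to 3′ on the strand of the gene from the RefSeq genome of the R64 assembly. Capitals mark the STRE in the first 5 (in STL1 joined with the Hot1 element GGGACAAA, both on the other strand), and the PAC and RRPE motifs in the last 3. STL1 is at chrIV:1507755-1507954, HSP12 at chrVI:107006-107205, DDR2 at chrXV:231806-232005 on the minus strand, TSL1 at chrXIII:70374-70573, CTT1 at chrVII:654384-654583, UTP23 at chrXV:333342-333541, RPA135 at chrXVI:581247-581446 and MRD1 at chrXVI:751970-752169, the last 2 on the minus strand.
STL1: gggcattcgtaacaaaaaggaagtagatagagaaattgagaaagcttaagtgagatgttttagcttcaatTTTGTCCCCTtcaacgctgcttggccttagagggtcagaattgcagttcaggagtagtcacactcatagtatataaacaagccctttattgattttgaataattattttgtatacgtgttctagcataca
HSP12: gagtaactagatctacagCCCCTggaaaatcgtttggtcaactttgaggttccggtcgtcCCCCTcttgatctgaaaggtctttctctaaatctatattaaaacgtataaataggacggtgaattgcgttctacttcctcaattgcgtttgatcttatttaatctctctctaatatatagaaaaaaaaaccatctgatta
DDR2: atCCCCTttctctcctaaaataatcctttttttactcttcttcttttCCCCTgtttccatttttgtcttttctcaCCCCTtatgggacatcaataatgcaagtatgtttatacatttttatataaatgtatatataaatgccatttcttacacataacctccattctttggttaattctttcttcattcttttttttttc
TSL1: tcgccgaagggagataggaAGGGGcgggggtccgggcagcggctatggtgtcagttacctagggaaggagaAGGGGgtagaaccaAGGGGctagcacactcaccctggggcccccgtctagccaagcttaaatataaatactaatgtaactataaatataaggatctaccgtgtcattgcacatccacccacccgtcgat
CTT1: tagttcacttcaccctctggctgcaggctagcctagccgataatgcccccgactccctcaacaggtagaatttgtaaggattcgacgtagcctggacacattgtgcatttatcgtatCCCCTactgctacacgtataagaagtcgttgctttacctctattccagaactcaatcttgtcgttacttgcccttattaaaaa
UTP23: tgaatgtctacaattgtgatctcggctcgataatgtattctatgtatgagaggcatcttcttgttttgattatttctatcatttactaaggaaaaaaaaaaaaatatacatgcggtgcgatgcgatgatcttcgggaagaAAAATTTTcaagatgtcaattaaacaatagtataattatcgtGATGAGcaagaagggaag
RPA135: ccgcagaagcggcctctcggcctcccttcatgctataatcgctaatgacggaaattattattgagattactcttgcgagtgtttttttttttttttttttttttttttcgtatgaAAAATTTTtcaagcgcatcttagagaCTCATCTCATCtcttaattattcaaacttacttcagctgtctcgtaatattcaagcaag
MRD1: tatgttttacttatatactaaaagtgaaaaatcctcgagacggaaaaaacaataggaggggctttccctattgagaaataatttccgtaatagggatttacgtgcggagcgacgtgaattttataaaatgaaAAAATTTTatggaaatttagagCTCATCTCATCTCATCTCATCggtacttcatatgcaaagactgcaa
TSL1 and DDR2 have 3 STRE copies in these bases and HSP12 has 2. MRD1 has 4 PAC copies that overlap end to end on the other strand, followed upstream by an RRPE, and it also holds an STRE that is not capitalised.

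The route to glycerol was induced at both of its steps. GPD1 (YDL022W), the glycerol-3-phosphate dehydrogenase of the first step, had 163, 171 and 177 CPM in the 3 non-stressed libraries and 12920, 12642 and 14254 CPM in the osmostressed libraries, so that its log2 fold change was 6.29 with an SE of 0.10 (adjusted p = 1.01e-28 by edgeR's glmTreat). With 13272 CPM on average, it took more counts than every gene but TDH3, SED1 and ENO2. Its paralog GPD2 had 277, 280 and 331 CPM without stress and 193, 179 and 213 CPM upon osmostress, and was lower by the test against 0. GPP2 (YER062C), a glycerol-3-phosphate phosphatase of the second step, rose from 71.4, 84.5 and 78.2 to 4926, 4982 and 5403 CPM (log2 fold change 6.03, SE 0.09). Its paralog GPP1 rose from 1116, 1302 and 1173 to 4664, 4713 and 5295 CPM (log2 fold change 2.03, SE 0.09). Per kb of gene, GPP2 made up 6.12% of the pair without stress and 51.1% upon osmostress. The 4 genes of glycerol synthesis together took 0.157% ± 0.0121 of the counts without stress and 2.56% ± 0.0537 upon osmostress (SD, n = 3).

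Among the genes of glycerol transport, STL1 (YDR536W), a glycerol-proton symporter that takes up glycerol, had 0.958, 1.21 and 1.83 CPM without stress and 4754, 4914 and 5109 CPM upon osmostress. RGC1, a positive regulator of the glycerol channel Fps1, was induced by 1.28. The channel gene FPS1 was lower by 0.43 on the log2 scale, from 134 to 99.6 CPM. Of the 6 genes of glycerol use, 4 were induced: DAK1, a dihydroxyacetone kinase (3.46), GUT2, the mitochondrial glycerol-3-phosphate dehydrogenase (2.64), and GCY1 and YPR1, which reduce or oxidise glycerol-related carbonyls (2.26 and 1.43). DAK2, with 1.27 and 1.55 CPM, passed neither test.

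All 4 subunits of the trehalose synthase complex were induced, with a median log2 fold change of 5.21 beside 0.08 over all genes. TPS2, the trehalose-6-phosphate phosphatase, rose from 82.5, 74.6 and 86.4 to 6479, 6627 and 6708 CPM (log2 fold change 6.35, SE 0.09), and TSL1, a regulatory subunit, rose by 6.00. TPS1, the catalytic synthase, rose by 4.41 and TPS3 by 2.72. The 3 trehalases, which break trehalose down, were induced in the same cells, NTH1 from 77.7 to 783 CPM. Of the glycogen genes, 9 of 12 synthesis genes were induced, with PGM2, a phosphoglucomutase, highest (6.13) and both glycogen synthases, GSY1 (4.84) and GSY2 (4.47), among them, and all 3 breakdown genes were induced, including GPH1, the glycogen phosphorylase (4.33). PGM1 was the synthesis gene nearest to 0 (−0.14).

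Entry of glucose into the cell and its phosphorylation changed in a gene-specific way. HXK1 and GLK1, a hexokinase and a glucokinase, were induced by 5.58 and 5.19, and EMI2, a paralog of GLK1, by 4.15. GLK1 had 199, 208 and 312 CPM without stress and 8042, 7970 and 10131 CPM upon osmostress. It overlaps the annotated gene YCL042W, so that reads in the overlap cannot be assigned. HXK2, the main hexokinase of growing cells, was lower by 0.33, with 1650, 1708 and 2037 CPM without stress and 1329, 1393 and 1562 CPM upon osmostress. Of 10 hexose transporters, 5 were induced and 2 were repressed. HXT5 rose by 5.34 on the log2 scale and HXT1, a low-affinity transporter, by 3.30, from 1065, 942 and 1377 to 10281, 11228 and 11752 CPM. HXT7 and HXT6, near-identical copies between which uniquely mapping reads may be divided unevenly, rose by 3.18 and 3.01. HXT3 and HXT2 fell by 1.95 and 1.33 on the log2 scale. No library of 1 group fell within the range of the other for any of these 6 genes, as for 74.1% of all genes tested.

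Glycolysis downstream of these kinases was not induced. Of 19 genes of glycolysis and fermentation, 15 were lower, none was repressed by more than 2-fold, and the median log2 fold change was −0.58. Only PDC6 and PYK2, minor isoforms of pyruvate decarboxylase and pyruvate kinase, were induced, by 1.91 and 1.68. ENO2, an enolase, had 21772, 24486 and 31426 CPM without stress and 12118, 12953 and 15400 CPM upon osmostress, a log2 fold change of −0.94. TDH3, a glyceraldehyde-3-phosphate dehydrogenase that took the most counts in both groups, was lower by 0.38, with overlap between the groups. PFK1 and PGK1 were lower by 0.17 and 0.28, and were above 0 with scaling by the library totals (0.11 and 0.00). The list took 16.7% ± 1.27 of the counts without stress and 13.6% ± 0.854 upon osmostress (SD, n = 3), without overlap between the groups.

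In the pentose phosphate pathway, 4 genes were induced and 3 were repressed. NQM1, a transaldolase, rose from 11.0, 10.7 and 11.7 to 2061, 2076 and 2071 CPM (log2 fold change 7.54, SE 0.08), and SOL4, TKL2 and GND2 rose by 7.15, 6.88 and 4.94. The isoforms that serve growing cells moved the other way in GND1 and TKL1, which fell by 1.28 and 1.30, and RKI1, the ribose-5-phosphate isomerase with no second isoform in the list, dropped by 3.65 on the log2 scale, from 112, 114 and 114 to 8.4, 8.95 and 9.87 CPM. ZWF1, the glucose-6-phosphate dehydrogenase of the first step, was higher by 0.79. In the TCA cycle, 7 of 16 genes were induced, 13 were higher, and the subunits of succinate dehydrogenase SDH2 and SDH1 led with 2.30 and 2.18. In the respiratory chain, 6 of 34 were induced and the median was 0.37. Cytochrome c changed isoform, with CYC7 at 6.47 and CYC1 at −1.36 on the log2 scale. Transcripts of the mitochondrial genome were near 0 in these poly(A) libraries and were not tested.

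**Figure D3:**
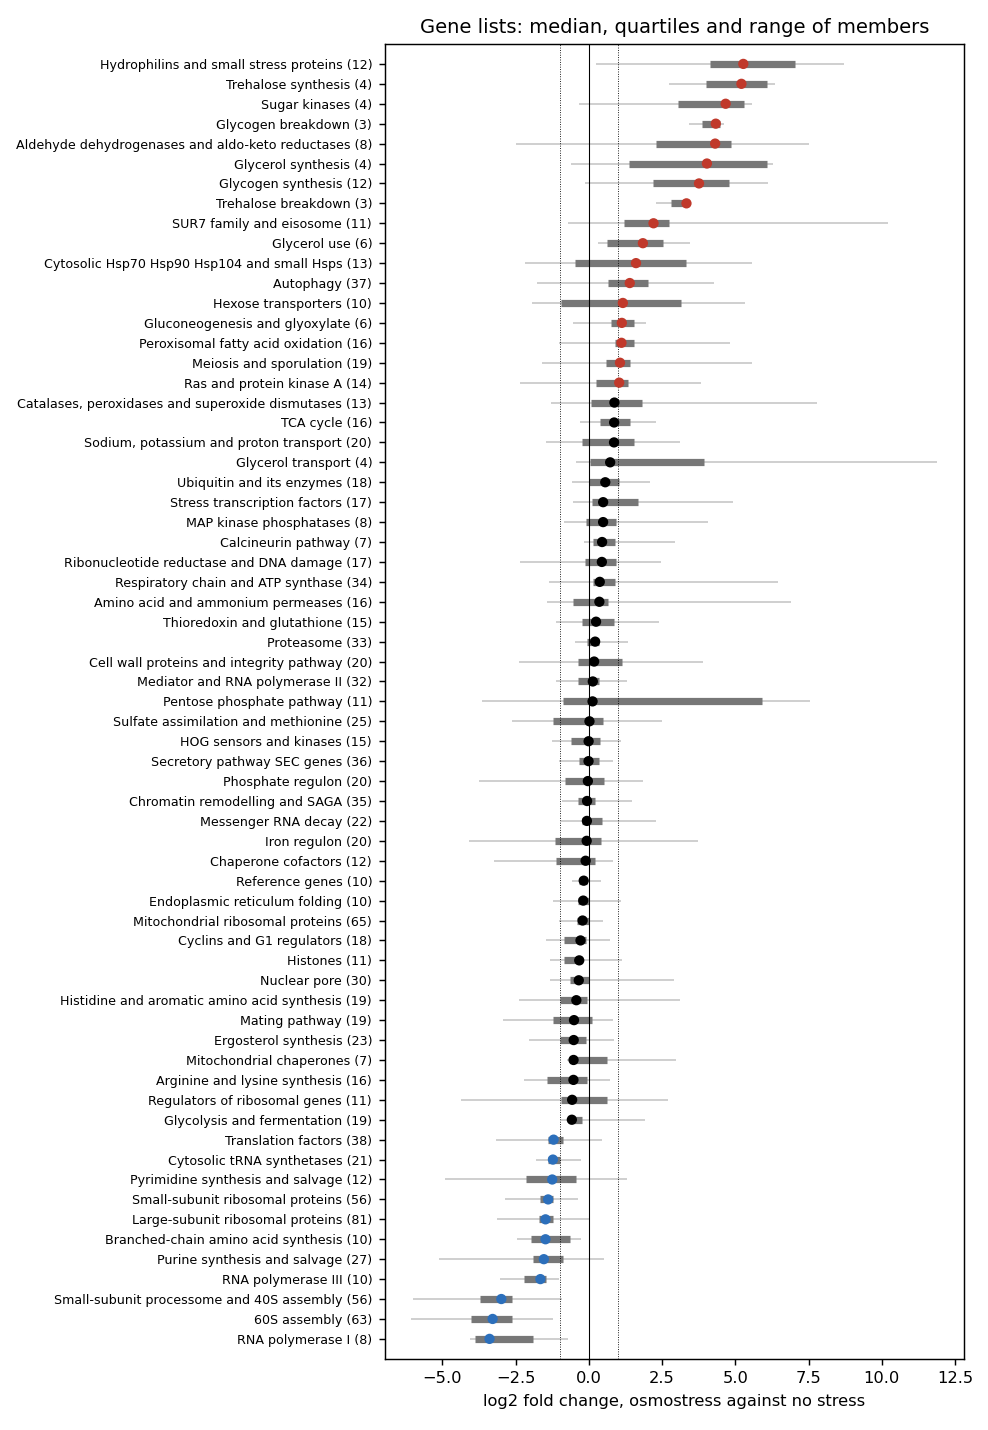
Median (points), quartiles (thick bars) and range (thin lines) of the log2 fold changes of the tested members of each gene list, with the number of members in parentheses and dotted lines at −1 and 1. Trehalose synthesis and the list of hydrophilins and small stress proteins lie highest, with medians of 5.21 and 5.27. RNA polymerase I and ribosome assembly lie lowest, with medians of −3.39, −3.28 and −2.99.

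Hydrophilins and other small stress proteins formed the list with the highest median, 5.27, and 11 of its 12 members were induced. HSP12, which binds membranes, rose from 9.92, 13.1 and 11.5 to 3843, 4326 and 4599 CPM, and DDR2 rose from 1.75, 2.97 and 2.25 to 521, 524 and 561 CPM. SIP18 and GRE1, hydrophilins known from desiccation, rose by 5.38 and 4.29. HSP30, which passed neither test, had 14.6, 17.8 and 15.1 CPM without stress and 18.8, 18.3 and 19.5 CPM upon osmostress. Aldehyde dehydrogenases and aldo-keto reductases, which remove reactive carbonyls, changed in all 8 members: 7 were induced, led by ALD3 (7.52), ALD2 (5.18), ALD4 (4.73) and GRE2 (4.36), and ALD5, a mitochondrial isoform, fell by 2.47. Of the genes against peroxide and superoxide, CTT1, the cytosolic catalase, stood apart. It rose from 27.7, 25.1 and 31.1 to 5787, 6091 and 6789 CPM (log2 fold change 7.80, SE 0.12), beside 3 further induced members, GPX1, PRX1 and TSA2 (1.82 to 2.61). The main peroxiredoxin TSA1 and GPX2 were repressed (−1.21 and −1.29). SOD1, a superoxide dismutase, passed neither test (0.06).

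Chaperones divided by class. Of 13 cytosolic chaperones, 7 were induced, among them the small heat shock proteins HSP42 (5.58) and HSP26 (3.98), the disaggregase HSP104 (3.52) and the Hsp110 SSE2 (3.30). SSB1 and SSB2, the ribosome-bound Hsp70 pair that attends to new chains, were repressed by 2.18 and 1.52, and they are close copies. None of 12 cofactors was induced, and CNS1, YDJ1 and CPR7, which work with Hsp70 or Hsp90, dropped by 3.24, 1.70 and 1.32 on the log2 scale. Among the mitochondrial chaperones, HSP78 was induced (2.98) and HSP60 and HSP10 were lower (−0.63 and −0.73). In the endoplasmic reticulum, KAR2 was lower by 0.26, a sign that turned with scaling by the library totals (0.02), and SCJ1 was repressed (−1.23).

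At the plasma membrane, genes of eisosomes, which organise furrows of the membrane, were induced in 8 of 11 cases. YNL194C, a member of the SUR7 family, had 0.394, 0.485 and 0.5 CPM without stress and 518, 535 and 607 CPM upon osmostress. FMP45, its relative, rose by 7.48 and the eisosome core proteins PIL1 and LSP1 by 2.80 and 2.68, while SUR7 itself was lower by 0.73. The sodium pumps ENA1, ENA2 and ENA5 rose by 3.11, 2.67 and 2.45 on the log2 scale. They are near-identical tandem copies, so that their separate values are uncertain. PMA1, the proton pump that energises the membrane, fell from 11061, 9250 and 12789 to 3856, 3975 and 4306 CPM (log2 fold change −1.45, SE 0.10). The potassium transporter TRK1 and the sodium-proton antiporter NHA1 had −0.70 and −0.26, of which the second passed neither test. PUT4, a proline permease, rose from 2.87, 3.22 and 6.49 to 465, 420 and 563 CPM.

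Wall and sterol genes moved in both directions. CWP1 and YGP1, cell wall mannoproteins, were induced by 3.89 and 3.08, and SED1, the most abundant of the wall proteins by counts, by 1.95, from 3360, 2956 and 4298 to 12243, 14104 and 14523 CPM. GAS1, a glucan-remodelling enzyme, dropped by 2.37 and CIS3 by 1.65 on the log2 scale. GSC2, a glucan synthase of stressed cells, was induced (1.29), and the growth synthase FKS1 was lower (−0.97). SLT2, the MAP kinase of the cell integrity pathway, was higher by 1.10. None of 23 ergosterol genes was induced and 5 were repressed, with ERG3 and ERG2, late desaturase and isomerase steps, at −2.04 and −1.51. ERG3 had 1075, 1045 and 1306 CPM without stress and 269, 280 and 281 CPM upon osmostress.

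The transcripts of the HOG pathway itself did not move together. Of 15 sensors, adaptors and kinases, 5 were higher and 7 were lower, with log2 fold changes of up to 1.09. None was induced and only SHO1 was repressed (log2 fold change −1.26, SE 0.08), beside 12.8% and 12.5% of all genes tested. HOG1 was higher by 0.46, with 288, 267 and 302 CPM without stress and 380, 394 and 403 CPM upon osmostress. PBS2, the kinase that activates Hog1, passed neither test (0.05). The phosphatases that switch MAP kinases off included 2 induced genes of 8, SDP1 (4.08) and PTP2 (1.35), the latter known to act on Hog1. Of 17 stress transcription factors, 5 were induced, XBP1, USV1, CIN5, GIS1 and MSN2 (4.91, 4.08, 3.79, 2.61 and 1.67). HOT1, SMP1 and YAP6 passed neither test (0.10, 0.02 and −0.09), and SKO1 was higher by 0.25. In the Ras and protein kinase A pathway, 6 of 14 genes were induced and 1 was repressed. TPK2, a catalytic subunit, rose by 2.49, TPK3, another, was lower by 0.96, and RAS1 dropped by 2.33 on the log2 scale, from 97.6, 94.4 and 98.6 to 18.3, 20.5 and 19.0 CPM. Both calcineurin genes that were induced, RCN2 (2.93) and CMP2 (1.31), encode a regulator and a catalytic subunit of this calcium-dependent phosphatase.

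Of 56 genes of the small-subunit processome and 40S assembly, 55 were repressed, with a median log2 fold change of −2.99, and of 63 genes of 60S assembly, 62 were repressed, with a median of −3.28. The exceptions, UTP22 and URB2, were lower without passing the 2-fold test (−0.92 and −1.21). UTP23 (YOR004W), an rRNA-binding factor, had 48.9, 56.7 and 47.2 CPM without stress and 0.835, 0.461 and 1.07 CPM upon osmostress, and MRD1, needed for early rRNA cleavage, fell from 91.1, 92.5 and 79.4 to 1.77, 1.97 and 1.93 CPM. Both assembly lists together took 1.34% ± 0.175 of the counts without stress and 0.205% ± 0.0151 upon osmostress (SD, n = 3).

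The polymerases that make ribosomal and transfer RNAs moved with them. For RNA polymerase I, 6 of 8 genes were repressed, RPA135 (YPR010C), its second-largest subunit, from 728, 688 and 748 to 43.4, 40.1 and 47.1 CPM (log2 fold change −4.05, SE 0.14). For RNA polymerase III, 9 of 10 were repressed, with a median of −1.65, whereas of 32 genes of Mediator and RNA polymerase II only SSN8, the cyclin C of Mediator, was induced (1.30) and none was repressed. Among the regulators of these genes, TOD6, a repressor that binds the PAC motif, dropped by 4.38 on the log2 scale, from 93.3, 89.8 and 83.2 to 3.09, 4.67 and 5.37 CPM. Its paralog DOT6 passed neither test (0.02). CRF1, a corepressor of ribosomal protein genes, was induced (2.71), and their coactivator IFH1 was repressed (−1.41).

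Ribosomal protein genes were repressed less steeply but weighed more in the libraries. Of 56 small-subunit and 81 large-subunit genes, 44 and 65 were repressed, none was induced, and the medians were −1.39 and −1.48. Together they took 22.7%, 24.5% and 23.6% of the counts without stress and 10.5%, 10.7% and 11.2% upon osmostress. Members ranged from RPL33B (−3.12) and RPS26B (−2.87) to RPS30A (−0.37), and RPL41A and RPL41B passed neither test (0.05 and −0.04). Many are duplicated, and uniquely mapping reads leave the copies uncertain where they are alike. The 65 mitochondrial ribosomal proteins, by contrast, held no gene past the 2-fold test in either direction. Their median of −0.21 turned to 0.06 with scaling by the library totals.

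Other parts of protein synthesis followed. Of 38 translation factors, 20 were repressed and none was induced. YEF3, an elongation factor of fungi, dropped by 3.18 on the log2 scale, from 9418, 9025 and 11100 to 1021, 1077 and 1172 CPM. GCN2, the kinase that restrains initiation, was higher by 0.46. All 21 cytosolic tRNA synthetase genes were lower and 13 were repressed, in a narrow range from DPS1 (−0.27, and 0.02 with scaling by the library totals) to MES1 (−1.80).

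Genes that make nucleotides and amino acids were repressed in part. In purine synthesis and salvage, 18 of 27 genes were repressed, with a median log2 fold change of −1.54, and the steepest was AAH1, the adenine deaminase, from 286, 294 and 318 to 7.32, 8.36 and 10.4 CPM (log2 fold change −5.12, SE 0.21). HPT1, which salvages hypoxanthine and guanine, dropped by 3.30 on the log2 scale. In pyrimidine synthesis, 6 of 12 were repressed, with a median of −1.25, led by URA7, a CTP synthase, from 450, 408 and 464 to 13.8, 16.3 and 14.1 CPM, while its paralog URA8 was higher by 0.71. RNR1, the large subunit of ribonucleotide reductase, dropped by 2.37 on the log2 scale. Of the amino acid lists, branched-chain synthesis had 6 of 10 genes repressed and a median of −1.48, arginine and lysine synthesis 6 of 16 and −0.52, and histidine and aromatic synthesis 4 of 19 and −0.43. ARO9, an aromatic aminotransferase that acts in breakdown, was the only induced gene of these 3 lists (3.13). In sulfate assimilation and methionine synthesis, MET28, a regulator, and MET2 were induced and 7 genes were repressed, among them SAM1 (−2.62), which makes S-adenosylmethionine.

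**Figure D4:**
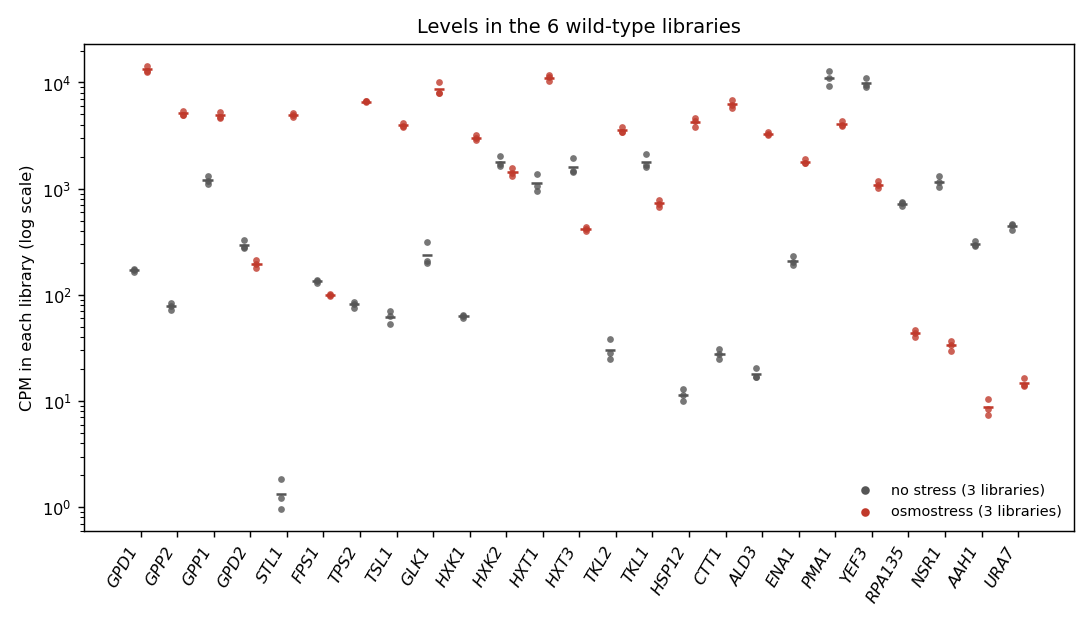
CPM on a log axis in each of the 6 wild-type libraries for 25 genes, no stress in grey and osmostress in red, with short lines at the means of 3 libraries. The groups do not overlap for any gene shown, as for 74.1% of all genes tested. GPD1 rises from 163 to 177 CPM to 12642 to 14254 CPM, and AAH1 falls from 286 to 318 CPM to 7.32 to 10.4 CPM.

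Genes of self-digestion were induced broadly. Of 37 autophagy genes, 21 were induced, 30 were higher, and the median was 1.4. ATG39, a receptor for nuclear autophagy, rose by 4.27 and ATG8, which coats the autophagosome, by 2.78, from 3.89, 3.09 and 2.16 to 21.5, 21.2 and 21.8 CPM. ATG41 was the only member repressed (−1.75). The proteasome list moved less: RPN4, its transcriptional activator, was induced (1.35), and of the other 32 genes none passed the 2-fold test. Of all 33 genes, 18 were higher and 6 were lower, and the median was 0.22. Of 18 genes of ubiquitin and its enzymes, 4 were induced, UBI4, the polyubiquitin gene, by 2.09 on the log2 scale. Among 16 genes of peroxisomal fatty acid oxidation, 7 were induced, with POT1, the thiolase, at 4.82 from under 1 CPM. Meiotic genes showed scattered rises at low levels, 5 of 19 tested, with SPS100, a spore wall gene, at 5.57. SPS100 overlaps an annotated noncoding gene.

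Nutrient regulons did not move as units. The iron regulon had FIT1, a cell wall mannoprotein for siderophores, induced by 3.72 and FRE1, a ferric reductase, at −4.09, and 4 genes repressed in all. In the phosphate regulon, PHO3, a constitutive acid phosphatase, dropped by 3.75 and PHO84, the high-affinity transporter, had 5.41 and 2.87 CPM. Mating genes were lower in 12 of 19 cases and repressed in 5, with FAR1, which arrests the cycle in G1, MFA2, a pheromone, and AGA2, an agglutinin, at −2.94, −2.77 and −2.55. HIS3, which these strains carry behind the promoter of the pheromone gene MFA1, dropped by 2.80 on the log2 scale, and MFA1 was lower by 1.05. Of 18 cyclins and G1 regulators, CLB1 and CLB2, mitotic cyclins, were repressed (−1.46 and −1.44), CLN1 and CLN2 were lower (−1.16 and −0.87), and CLN3 was higher (0.72). In a population, fewer cells at a stage and less RNA per cell cannot be told apart.

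Several large lists held almost no gene past the 2-fold test. Of 36 SEC genes of the secretory pathway none passed, of 35 genes of chromatin remodelling and SAGA only RSC9 (1.49), of 22 genes of messenger RNA decay only EDC2 (2.29), and of 30 nucleoporin genes POM33 (2.91) and NUP2 (−1.33). Of 10 genes often used as references none passed, and ACT1 was lower by 0.34. The medians of these 5 lists lay between −0.34 and −0.01 on the log2 scale, and all but that of the nucleoporins were above 0 with scaling by the library totals. The 64 lists other than references and strain checks held 1277 of the 6209 genes tested. Of these members, 178 were induced (13.9%) and 369 were repressed (28.9%), beside 12.8% and 12.5% of all genes tested. The share induced was thus near that of all genes. Most induced genes lay outside the lists, as did most of the genes tested.

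The isoform changes seen above are among 30 paralog pairs, each written with a first and a second member. The order is a label and does not always put the member that responds to stress first. DAK2 (0.33), which passed neither test, stands before DAK1 (3.46), which was induced. Since pairs were put together with these results known, their direction is not independent. In 18 pairs only the first member was induced, in 7 both were, in 2 only the second was, and in 3 neither was. In 4 pairs the first was induced while the second was repressed: GND2 and GND1, TKL2 and TKL1, CYC7 and CYC1, and TSA2 and TSA1. Per kb of gene, the first member had the lower level without stress in 28 pairs and the higher level upon osmostress in 15. TKL2 made up 1.68% of the summed CPM per kb of the transketolase pair without stress and 83.0% upon osmostress, and HXK1 3.38% and 67.9% of the hexokinase pair. FMP45 made up 1.21% and 78.0% of its pair with SUR7, whose family also holds the induced YNL194C. In contrast, SSA4, SSE2 and HSP82 stayed the lower member upon osmostress, at 8.18%, 28.2% and 31.8%. DAK2, NTH2, GRX1, MSN4 and FHN1 had smaller log2 fold changes than their partners.

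**Figure D5:**
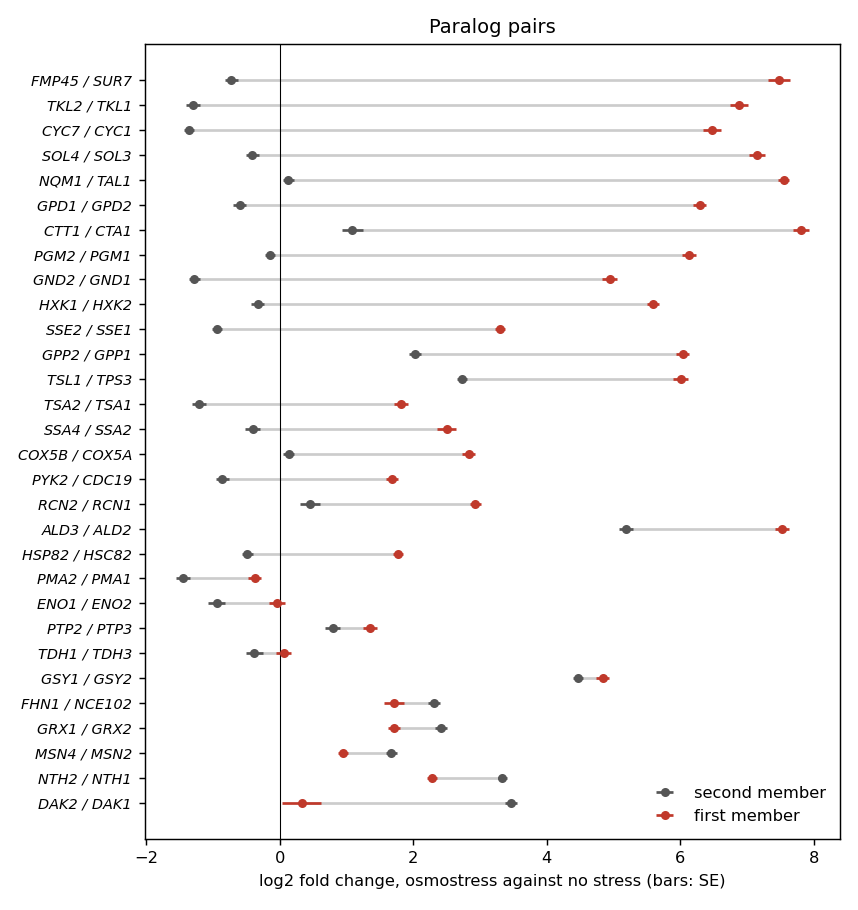
Log2 fold change with its SE (bars) of the first (red) and second (grey) member of 30 paralog pairs, ordered by the difference between them. The first member lies to the right in 25 pairs, by up to 8.20 in FMP45 and SUR7, whose family also holds the induced YNL194C.

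Over all genes tested, the largest inductions after STL1 and YNL194C were those of RTC3 (8.70), HSP12 (8.53), YOL085C, FMP48 (8.18), DDR2 (7.85), CTT1 (7.80), NQM1 (7.54) and ALD3 (7.52). RTC3 encodes a small stress protein and FMP48 a putative protein kinase. YOL085C is an uncharacterized gene with 0 counts in all 3 non-stressed libraries and 45, 36 and 47 counts upon osmostress, at least 12.3-fold higher than a floor of 3 counts per library after division by the library totals. The largest decreases were those of NOG2, UTP23, SYO1, MRD1, HCA4, NSR1, TRM11, RRP12, AAH1 and NOG1, between −6.07 and −5.09. Of these, 9 serve ribosome or tRNA maturation and AAH1 serves purine salvage. NSR1, the yeast nucleolin, had 1036, 1154 and 1313 CPM without stress and 33.6, 29.6 and 36.8 CPM upon osmostress.

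A direct contrast of osmostressed with heat-stressed libraries of the same strain, which does not use the non-stressed libraries, showed where the levels differed from those upon heat. By more than 2-fold, 225 genes were higher (3.62%) and 238 were lower (3.83%) in osmostressed than in heat-stressed cells, which also differ in the length of the stress. Of the 795 induced genes, 665 differed in neither direction, 72 were above and 58 were below their level upon heat. STL1, HXT1, PUT4, NFG1 and FMP48 stood highest among genes with a standard name, by 6.91, 5.66, 5.27, 5.02 and 4.50 on the log2 scale. STL1 had 4.88, 3.68 and 115 CPM in the 3 heat-stressed libraries, of which the last stands apart. All 3 induced genes of glycerol synthesis were above heat, GPP2, GPP1 and GPD1 by 3.38, 3.06 and 2.77, as were ENA1 (2.28) and FIT1 (3.95). The direct medians were −0.16 for trehalose and −0.37 for glycogen synthesis, and of these 2 lists and the 2 of breakdown, TPS2 was above heat (1.42) and GPH1 was below it (−2.70). On the other side stood folding: 11 of 13 cytosolic chaperone genes were lower upon osmostress than upon heat, with a direct median of −3.40 and SSA4 at −6.24 on the log2 scale. The other 2, SSB1 and SSB2, whose products bind nascent chains at the ribosome, were above heat (2.16 and 2.14). HSP30, of the small stress proteins, was below heat at −8.61. Of the 256 genes in the 4 lists of ribosomal proteins and assembly, 54 were above heat by the 2-fold test and 2 were below it, MRD1 (−1.57) and RRP14 (−2.23), with direct medians between 0.73 and 0.96 for the 4 lists.

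The same treatment was repeated in H4-S47D cells with separate libraries, and 518 genes were induced (8.34%) and 618 were repressed (9.95%) there. Of the 795 genes induced in wild-type cells, 487 were induced in H4-S47D cells (61.3% of the wild-type and 94.0% of the H4-S47D list). Of the 778 repressed genes, 574 were shared (73.8% and 92.9%). Tested against 0, 765 and 775 of the wild-type genes moved in the same direction in H4-S47D cells, and 2 of the induced genes were repressed there, AZR1, a drug transporter (2.24 in wild-type and −2.20 in H4-S47D cells), and HXT4, a hexose transporter (1.19 and −1.70). Mean levels of AZR1 without stress were 21.3 CPM in the wild-type and 350 CPM in the H4-S47D libraries, against 99.3 and 76.3 CPM upon osmostress. HXT4 had 122 and 1341 CPM without stress and 277 and 412 CPM upon osmostress. List medians were nearer to 0 in H4-S47D cells for trehalose synthesis (3.75), glycogen synthesis (2.66), hydrophilins and small stress proteins (3.72) and 60S assembly (−2.54). Others lay further from 0 there, as for glycolysis and fermentation (−0.75) and ergosterol synthesis (−0.70, against −0.52 in wild-type cells). The level without stress enters these values. DDR2 had 2.32 CPM in wild-type and 23.6 CPM in H4-S47D cells without stress, and 535 and 457 CPM upon osmostress. For GSY2 these were 61.5 and 143 CPM, and 1361 and 971 CPM. Whether these medians differ between the strains was not tested.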

How the data were processed

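Libraries were made with a stranded poly(A) kit and read single-end. Per the labels and the study's methods, the authors mapped reads to sacCer3 with TopHat2 2.1.0, counted uniquely mapping reads per gene of the Ensembl R64-1-1 annotation with featureCounts 1.5.1 and used DESeq2 1.14.1. Whether counting used the strand is not given in the sources used here, so overlapping genes are uncertain. The deposited values are raw counts of 6746 genes in 27 libraries; no column of per-sample values was left out. Replicates are described as biological; the labels give only their numbers.

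Counts were filtered with filterByExpr (minimum count 10), scaled by TMM and fitted with edgeR 4.0.16 (R 4.3.3) with 1 mean for each of 9 groups of strain and condition, over all 27 libraries. Contrasts were tested by glmTreat against a log2 fold change of 1 and by the quasi-likelihood test against 0, with Benjamini-Hochberg adjusted p under 0.05 over 6209 genes. Each SE was derived from the test against 0, as the absolute log2 fold change divided by the square root of the F statistic. It is not an output of glmTreat. Tested on simulated data with 6147 genes, the 2-fold test recovered 99 of 100 genes changed by 2 on the log2 scale and 100 of 100 changed by 3, with 0 unchanged genes called. The simulation changed only genes above a minimum level, in equal numbers up and down, and left all others unchanged. It therefore did not test genes near the 2-fold limit or a response as broad as the one seen here. Gene names matched RefSeq R64 for 6025 genes by locus tag and 31 by symbol, and 6055 promoters of 300 bases were read. The gene lists, paralog pairs, motifs and members were chosen with earlier results of these data known. Named genes were the largest changes in each list and over all genes, the member of a list nearest to 0, members of lists of 20 genes or fewer, the genes with the highest CPM, both members of each pair, and the largest differences from heat. Alternatives were other scalings and filters, a replicate block, only the 6 libraries, DESeq2 1.42.0, another threshold and leaving out each library. A result that names a withheld item is not reported here.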

Additional observations from a re-analysis of the deposited data

Results flagged for a closer look

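Upon osmostress, 3 genes were induced in wild-type cells and had lower levels in every osmostressed than in every non-stressed H4-S47D library. AZR1, a drug transporter gene, had a log2 fold change of 2.24 in wild-type and −2.2 in H4-S47D cells, where it was repressed. HXT4, a hexose transporter gene, had 1.19 and −1.7 and was likewise repressed in H4-S47D cells. GSC2, a glucan synthase gene, had 1.29 and −0.208 and did not pass the 2-fold test in H4-S47D cells, where the highest osmostressed library had 354.7 CPM and the lowest non-stressed library 355.0 CPM. The wild-type calls of GSC2 and HXT4 were lost with DESeq2 on the 6 libraries. Without stress, the wild-type and H4-S47D means were 21.3 and 350 CPM for AZR1, 122 and 1341 CPM for HXT4 and 125 and 389 CPM for GSC2. Upon osmostress they were 99.3 and 76.3 CPM for AZR1, 277 and 412 CPM for HXT4 and 305 and 337 CPM for GSC2. The differences between the strains were not tested.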

How the results depend on the processing

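The counts of genes induced and repressed in wild-type cells stayed within 1.5 times of the values given under every alternative: 580 to 1079 induced and 563 to 945 repressed, with 772 to 822 and 731 to 788 when any of the 6 libraries was left out. DESeq2 on the 6 libraries gave the 580 induced genes, and 694 repressed. With the replicate number as a block, 794 genes were induced and 776 repressed. Deviations from the group mean correlated with r of 0.104, 0.0157 and 0.146 between same-numbered libraries. Between libraries of different numbers, r lay between −0.199 and 0.119. With 3 libraries per group, these values cannot tell whether the numbers pair the samples.

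Scaling by the library totals moved the contrast with heat to 489 genes above and 156 below, and the H4-S47D response to 816 induced and 385 repressed genes. Where the 2-fold limit was applied to the estimate and the test was against 0, the contrast with heat gave 503 and 404 genes. On the strand of the gene only, 27.9% of the promoters of induced genes held an STRE. The cause was not tested.

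With scaling by the library totals, list medians turned positive for mitochondrial ribosomal proteins (0.05542), SEC genes (0.2622), chromatin remodelling (0.2145), messenger RNA decay (0.2038) and reference genes (0.1024), as did the log2 fold changes of BAR1 (0.06846), DPS1 (0.01588), KAR2 (0.01753), PFK1 (0.1071) and PGK1 (0.004531). With 1 library left out, the median of the SEC genes ranged from −0.05041 to 0.06696, that of chromatin remodelling from −0.08705 to 0.01156 and that of messenger RNA decay from −0.07047 to 0.03775. The direction of these medians is therefore not settled.

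Genes near the threshold lost their 2-fold call in places. With the library totals these were CLB1, CLB2, CPR7, CYC1, GND1, GPX2, HXT2, IFH1, NUP2, SCJ1, SHO1, TKL1 and TSA1, and with DESeq2 on the 6 libraries CMP2, GSC2, HXT4, MET2, PTP2, RGC1, SCJ1, SSN8 and TSA1. With 1 library left out, GPX2, HXT4, IFH1, MET2, SSN8, TKL1 and TSA1 lost the call in at least 1 case. The first member had the higher log2 fold change in 25 of 30 paralog pairs under every setting, but a change of scaling shifts both members of a pair alike. Depth limits genes with few counts: 32 induced genes had at most 3 counts in every non-stressed library, so that their fold changes depend on the prior count.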
